A study of Mus musculus with 6 samples.

Results

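The cytosolic ribosomal protein genes of mouse B cells are described here, as the protein-coding genes whose symbol is Rpl or Rps followed by a digit, with Rplp0, Rplp1, Rplp2 and Rpsa. Pseudogene symbols and the Rps6k kinases were left out, which gave 85 members among 39179 Ensembl gene identifiers. Of these, 45 encode large subunit proteins and 31 encode small subunit proteins. The others are 8 paralogs of subunit genes and Rps19bp1, which encodes a binding partner of the subunit protein RPS19 and is not itself a ribosomal protein. RNA-Seq was performed on GC B cells (Fas+GL7+) and on resting, or naive, B cells (Fas-GL7-) sorted from the Peyer's patches of the ileum of WT female C57BL/6 mice that were 12 wk old. Both populations had 3 biological replicates, each made from the pooled cells of 5 mice. No mouse carried a mutation or received a treatment that the labels name. The values are transcripts per 1000000 (TPM), rescaled from the deposited FPKM, and they therefore give each gene's share of the transcripts of a pool and not its amount per cell.

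Each cytosolic ribosome is built from a large and a small subunit, and most of their proteins are encoded by a single active gene per protein in mammals. Their mRNAs are short, abundant and belong to the TOP class, whose first bases after the cap are a run of pyrimidines through which growth signals such as mTOR control their translation. GC B cells divide rapidly and mutate their antibody genes, whereas naive B cells are small quiescent cells. Ribosomal protein genes have also left many processed pseudogenes, which are near-identical copies of the mRNA inserted elsewhere in the genome.

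The sort was visible in the marker genes. The summed level of 4 GC markers (Fas, which was used in the sort, Bcl6, Mybl1 and S1pr2) lay between 848 and 894 TPM in GC pools and between 51.4 and 56.9 TPM in naive pools. Conversely, 4 naive markers summed to between 102 and 114 TPM in GC pools and to between 1320.1 and 1426 TPM in naive pools. The 5 B cell markers examined were present in both, with sums of 3782 to 3817 TPM in GC and 5633 to 5766 TPM in naive pools, and 3 plasma cell markers summed to between 109 and 132 TPM in the 6 pools. A total of 10 epithelial markers summed to between 65.9 and 143 TPM in GC pools and to between 194 and 234 TPM in naive pools, with 6 lower and 1 higher in GC B cells. The summed level of 6 T cell markers was between 129 and 140 TPM in GC pools and between 65.8 and 69.4 TPM in naive pools, with Cd3d, Cd3e and Cd8a under 1 TPM. Of 6 myeloid markers, 4 were under 1 TPM, and their sum was at most 7.07 TPM in any pool. What part these cells had in the values below was not tested. The files hold no counts, and the steps of low FPKM values gave approximate depths of 9600000 to 16100000 fragments per pool, with naive replicate 2 the deepest, although these steps do not tell a depth from its double.

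The coding sequences that carry the most marked contrast are those of Rps27 and its paralog Rps27l, which encode alternative forms of the zinc finger small subunit protein S27. They are shown here 5′ to 3′ as in the GENCODE annotation, over coding sequences of 255 bases each, and capitals mark the 61 bases at which they differ. They shared 76.1% of bases. In RefSeq (GRCm38.p6), Rps27 lies at chr3:90212667-90213648 and Rps27l at chr9:66944624-66949522.
Rps27: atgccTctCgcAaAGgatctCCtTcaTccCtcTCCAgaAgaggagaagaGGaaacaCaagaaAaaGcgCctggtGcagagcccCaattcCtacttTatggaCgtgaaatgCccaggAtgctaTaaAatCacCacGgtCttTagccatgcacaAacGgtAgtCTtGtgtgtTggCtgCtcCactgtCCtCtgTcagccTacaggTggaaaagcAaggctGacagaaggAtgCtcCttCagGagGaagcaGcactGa
Rps27l: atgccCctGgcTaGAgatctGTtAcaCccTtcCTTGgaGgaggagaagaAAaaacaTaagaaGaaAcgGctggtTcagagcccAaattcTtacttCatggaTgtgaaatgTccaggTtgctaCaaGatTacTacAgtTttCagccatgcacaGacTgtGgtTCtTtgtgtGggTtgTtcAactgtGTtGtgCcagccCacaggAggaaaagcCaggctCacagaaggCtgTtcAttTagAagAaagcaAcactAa
Gm9846, annotated as a protein-coding gene at another locus, has a coding sequence that matches Rps27 at every one of these 255 bases.

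The ribosomal protein genes took a smaller share of the transcripts in GC B cells than in naive B cells. Together they held 11.5%, 12.0% and 11.5% of all TPM in GC replicates 1, 2 and 3, and 13.4%, 12.8% and 14.4% in naive replicates 1, 2 and 3. The groups did not overlap. The means were 11.7% ± 0.264 for GC and 13.5% ± 0.823 for naive B cells (SD, n = 3 each), a ratio of 0.861, and with 3 pools against 3 no exact permutation test can go below 0.10. Large subunit genes held 6.30% ± 0.137 of GC and 7.31% ± 0.422 of naive TPM, and small subunit genes held 5.21% ± 0.128 and 6.12% ± 0.395. The summed level of large over small subunit genes was 1.21 ± 0.00456 in GC and 1.19 ± 0.00876 in naive B cells. In contrast, the mitochondrial ribosomal protein genes held 0.503% ± 0.00620 of GC and 0.360% ± 0.0206 of naive TPM. In these bulk pools, fewer cells of a type and less RNA per cell cannot be told apart.

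**Figure D1:**
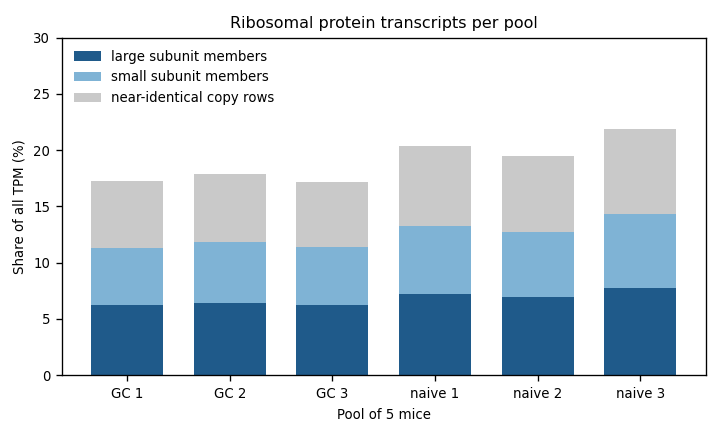
Stacked bars give the share of all TPM (%) held by large subunit members, small subunit members and near-identical copy rows in each of the 6 pools of 5 mice. The members and copies together reach 17.6% on average in GC pools and 20.7% in naive pools, and naive replicate 3 stands highest.

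Gene by gene, limma was fitted to log2(TPM + 1) for the 12785 genes that reached 1 TPM in 3 or more of the 6 pools, and a call is a Benjamini-Hochberg adjusted p under 0.05 over all of them. Of the 85 members, 81 were tested, 13 were higher in GC B cells, 42 were lower and 26 did not pass the test. Among all genes tested, 35.5% were higher and 30.1% were lower in GC B cells. The median log2 fold change, GC minus naive, was -0.18 over the members tested and 0.03 over all genes tested. Large subunit genes counted 6 higher and 26 lower of 45 (median -0.18), and small subunit genes 2 higher and 16 lower of 30 (median -0.21). The 3 GC values lay all above the 3 naive values in 14 of the tested members and all below in 45, where 37.8% and 32.8% of all genes tested did so. The size of the shift rests on the scaling. After quantile normalization the members' median was -0.07 and that of all genes tested -0.06, with 17 members higher and 30 lower, where 31.9% of all genes were higher and 34.8% lower. After removal of GC content and length trends the counts were 8 higher and 57 lower, against 33.8% and 39.1% of all genes in that fit.

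Among the 75 core subunit genes tested, levels of the genes' own rows, as means over the 6 pools, had a median of 1563 TPM. Of these genes, 51 were over 1000 TPM. Levels ran from 21.9 TPM for the row named Rpl24 to 8499 TPM for Rpl13a. The coding sequence annotated for the Rpl24 row has 3153 bases, the longest of the core genes, so that row may not measure Rpl24. The next lowest was Rpl31 at 26.9 TPM. With near-identical copies added, as described below, 72 of 76 core genes were over 1000 TPM, with a median of 2257 TPM and a maximum of 10816 TPM for Rps29. A total of 39 of the 100 highest genes of the table were members. The pools were tight, with a median coefficient of variation of 3.07% among GC and 6.42% among naive replicates. Naive replicate 3 was the highest of the 6 pools for 54 of 75 core genes. Without it, 13 members were higher, 41 were lower and the median was -0.14, where 4278 of all 12311 genes tested were higher and 3462 lower. By comparison, the 151 other genes at 500 TPM or more had a median log2 fold change of 0.09, with 68 higher and 63 lower. The 1612 other genes with a coding sequence under 600 bases had a median of 0.16, with 689 higher and 398 lower.

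**Figure D2:**
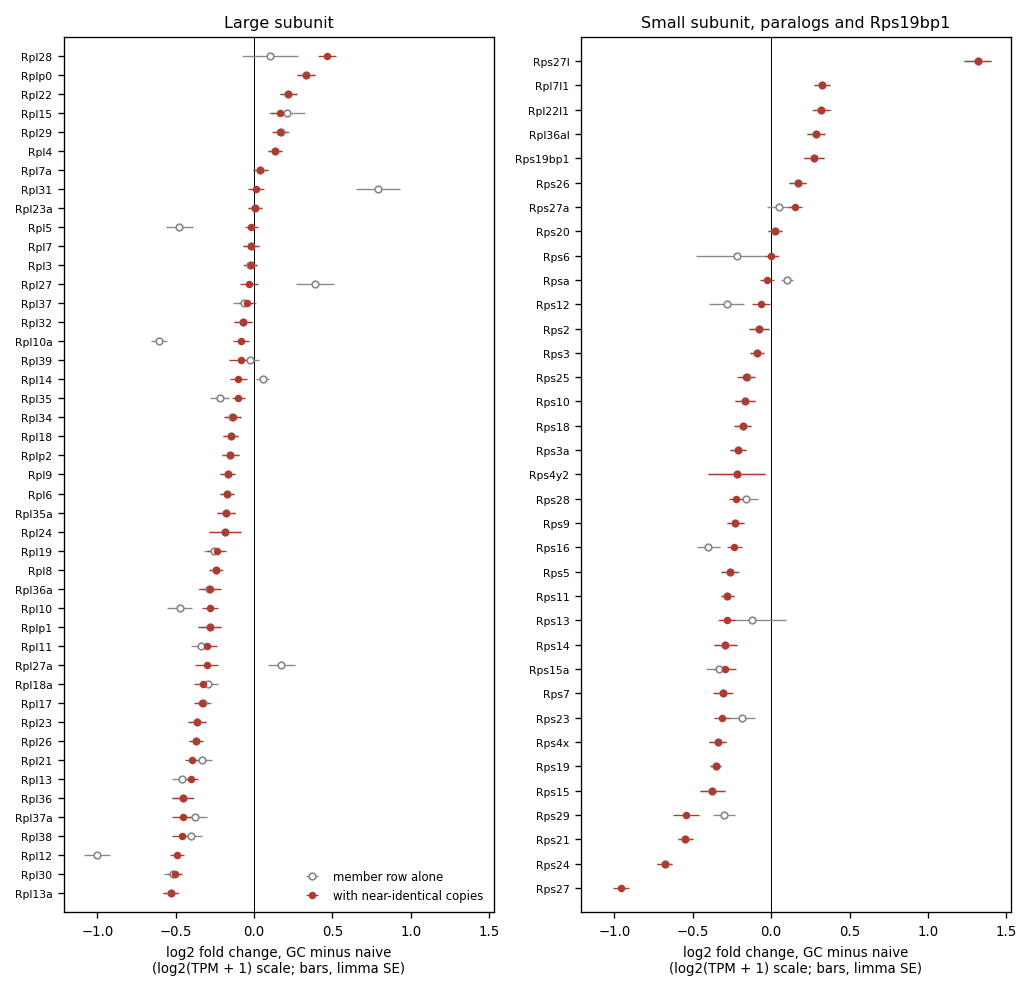
Log2 fold changes of members, GC minus naive on the log2(TPM + 1) scale, are plotted for the member's row alone (open circles) and with its near-identical copies added (filled circles), with bars for the limma SE (n = 3 pools per group). Most points lie left of 0, Rps27l stands at 1.32, and several genes such as Rpl31 and Rpl5 move to near 0 once copies are added.

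Many members share their sequence with copies, and the deposited table lists those copies as rows of their own. A search of annotated transcripts found 354 rows that cover at least 80% of a member's coding sequence at 95% identity or more, 240 of them annotated as pseudogenes, for 69 members. Of these rows, 84 averaged at least 1 TPM. Some rows are protein-coding genes with other names that have a matching transcript. Among them were Orc5, Uimc1 and Med21, whose whole TPM was counted as copies of Rpl22l1, Rpl29 and Rps26. The copies held 5.97%, 4.99% and 1.17% of the summed TPM of these members. In 23 members the copies held over 50% of the summed TPM of member and copies. RSEM divides reads between identical sequences by a model, so reads of such a pair cannot be assigned to either with certainty, and TPM also depends on the length of the row a read is given to. All copies together held 5.96% ± 0.134 of GC and 7.15% ± 0.398 of naive TPM. The fit was therefore repeated with each copy's TPM added to its member, an alternative chosen after the data had been seen. In that fit 14 members were higher and 44 lower of 82 tested, against 35.7% and 30.1% of all genes, 11 were higher in both fits and 39 lower in both, and no member was called higher in 1 fit and lower in the other. With copies added, the large subunit was 9.38% ± 0.158 of GC TPM and 10.7% ± 0.628 of naive TPM, and the small subunit 8.08% ± 0.233 and 9.91% ± 0.584. The ratio of large to small subunit was then 1.16 ± 0.0137 in GC and 1.08 ± 0.00126 in naive B cells, and all 3 GC ratios lay above the 3 naive ones. This difference rested largely on Rps27 and Rps29, without which, in a sum made after the data had been seen, the ratio was 1.39 ± 0.0125 in GC and 1.37 ± 0.00266 in naive B cells. The 3 GC ratios still lay above the 3 naive ones, but narrowly, with 1.374 as the lowest in GC and 1.373 as the highest in naive pools.

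Rps27 was the clearest case. Its own row was listed at 0 in all 6 pools, although it encodes a protein of the small subunit, and its exact copy Gm9846 was listed at 4502, 4256 and 4364 TPM in GC and at 8270.4, 8159 and 9041 TPM in naive replicates. The sum of the pair did not overlap between groups and was lower in GC B cells, with a log2 fold change of -0.96 (SE 0.0508, limma adjusted p = 9.56e-06). Rps29, another small zinc finger gene, was at 902, 852 and 864 TPM in GC and at 1100.3, 969.6 and 1162 TPM in naive pools. With its copies, among them Gm14303 and Gm10126, it had the highest mean of the core genes, at 8707, 9669 and 8027 TPM in GC and at 12576, 12053 and 13861 TPM in naive replicates. Both of its log2 fold changes were negative, at -0.30 alone (adjusted p = 0.00951) and -0.55 with copies (adjusted p = 0.00132), and the first call was lost after removal of GC content and length trends (adjusted p = 0.062). Rpl28, a large subunit gene, went the other way. Its row did not pass the test (0.10, adjusted p = 0.643), but with Rpl28-ps1 it was at 4509, 4372 and 4430.4 TPM in GC and at 3215, 2979.8 and 3455 TPM in naive B cells, a log2 fold change of 0.47 (SE 0.0579, adjusted p = 0.000489).

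For other members the call was lost once copies were added. Rpl31 was at 27.9, 35.6 and 39.9 TPM in GC and at 21.3, 18.3 and 18.5 TPM in naive B cells, a log2 fold change of 0.79 (adjusted p = 0.00271). Its copies, chiefly the identical Gm8759, held 99.1% of the summed TPM, and the sum gave 0.01 (adjusted p = 0.815). Likewise, the change of Rpl27 moved from 0.39 (adjusted p = 0.0283) to -0.03 (adjusted p = 0.653), and that of Rpl10a from -0.61 (adjusted p = 8.63e-05) to -0.08 (adjusted p = 0.204). Rpl5, which binds 5S rRNA together with Rpl11 and, outside the ribosome, the p53 regulator MDM2, went from -0.48 (adjusted p = 0.0031) to -0.02 (adjusted p = 0.726). Rpl35 went from -0.22 (adjusted p = 0.016) to -0.10 (adjusted p = 0.0677). Conversely, Rpl27a (-0.30), Rps13 (-0.28), Rps23 (-0.31) and Rps28 (-0.23) passed the test as lower with copies and not alone, and Rpl15 (0.17) and the ubiquitin fusion gene Rps27a (0.15) passed it as higher with copies and not alone. Rpl27a had the opposite sign alone (0.17, adjusted p = 0.124), and its copies held 96.4% of the summed TPM. In all, 13 members changed their call, counting Rps27, which had no test of its own.

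Rps27l showed the largest increase. Its level was 166, 186 and 176 TPM in the GC pools and 66.7, 64.7 and 79.1 TPM in the naive pools. Every GC value was above every naive value. The ratio of the means was 2.5 and the log2 fold change 1.32 (SE 0.0879, limma adjusted p = 2.81e-05). The protein is an alternative form of S27 and its gene is a known p53 target. Set against Rps27 with its copies, Rps27l amounted to 3.69%, 4.36% and 4.02% in GC and to 0.807%, 0.793% and 0.875% in naive pools. The 3 GC shares were all above the 3 naive shares.

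Other paralogs were higher as well. Counting Rps27l, 5 paralogs could be tested, and 4 passed the test as higher and none as lower, where 35.5% of all genes tested were higher and 30.1% lower. After removal of GC content and length trends 2 of the 5 were called higher, against 33.8% of all genes in that fit. Rpl22l1, whose protein is the paralog of the RNA-binding large subunit protein L22, was at 421, 396 and 414 TPM in GC and at 307, 325 and 354 TPM in naive B cells, a log2 fold change of 0.32 (SE 0.0609, adjusted p = 0.0036). Rpl36al was at 839.6, 847 and 883 TPM in GC and at 722, 647 and 741 TPM in naive B cells (0.29, SE 0.0591, adjusted p = 0.0053). Neither pair of groups overlapped. Both calls were lost after removal of GC content and length trends, and that of Rpl36al also after quantile normalization. Its parent gene Rpl36a was lower in GC B cells, and the level of the paralog relative to the parent was 73.4% ± 5.11 in GC and 49.2% ± 1.71 in naive B cells (SD, n = 3 each). For Rpl22l1 this ratio differed less, at 27.7% ± 1.35 and 25.7% ± 1.27, and its pools overlapped, and Rpl22 itself was also higher in GC B cells. Rpl7l1 rose by 0.32 (adjusted p = 0.00118), from 54.0 TPM ± 1.25 to 67.8 TPM ± 1.83 (SD, n = 3 each). Rps4y2, a paralog of the X-linked Rps4x, was between 4.59 and 8.36 TPM and did not pass the test (-0.22, adjusted p = 0.324). Rpl39l was at 1.02, 0.747 and 3.12 TPM in GC and at 0.729, 0.452 and 0 TPM in naive pools, below the level for a test. Rpl3l, known from striated muscle, and Rpl10l, known from testis, were listed at 0 in every pool. Rps19bp1 was at 36.7 TPM ± 0.629 in GC and at 30.2 TPM ± 1.67 in naive B cells (0.27, adjusted p = 0.008).

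The stalk of the large subunit, which recruits translation factors to the ribosome, is formed by Rplp0 as its base and by dimers of Rplp1 and Rplp2. These 3 genes differed in direction. Rplp0 was at 3015, 3121 and 3014 TPM in GC and at 2366, 2299 and 2617 TPM in naive B cells, without overlap (0.33, SE 0.0557, adjusted p = 0.00206). Rplp1 was at 3363, 3394 and 3239 TPM in GC and at 3934, 3745 and 4531 TPM in naive B cells (-0.28, SE 0.074, adjusted p = 0.014), although the adjusted p was 0.0507 after quantile normalization. Rplp2 had a log2 fold change of -0.15 (adjusted p = 0.043) that was 0.01 after quantile normalization, and its call was also lost under several other settings. None of the 3 had copies that held over 0.05% of its summed level. Rplp0 passed the test as higher under each of the 5 other scalings tried and with copies added.

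The other large subunit genes that passed the test as higher were Rpl22, Rpl29 and Rpl4, with log2 fold changes of 0.22, 0.17 and 0.13, beside Rpl31 and Rpl27 described above. In the small subunit Rps26 (0.17) was among them. These 4 changes were small, and all 4 calls were lost both with FPKM as deposited and with median-of-ratios factors. That of Rpl4 turned to -0.12 after removal of GC content and length trends.

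Some members that were lower had changes that hardly depended on the copies found. The largest were those of Rps24 and Rps21 of the small subunit and Rpl13a and Rpl30 of the large subunit. For Rpl13a no copy was found, but this does not show that its change is independent of copies. Its annotated coding sequence has 1272 bases, and a copy had to cover most of it, so shorter copies could not be counted. Rps24 was at 2531, 2665 and 2566 TPM in GC and at 4045, 3998 and 4391 TPM in naive B cells. Its log2 fold change was -0.68 alone and -0.68 with copies (SE 0.0486 and 0.048, adjusted p = 3.88e-05 and 3.51e-05). Rps21, for which no copy was found, was at 1847, 1919 and 1819.7 TPM in GC and at 2711, 2602 and 2857 TPM in naive B cells (-0.55, adjusted p = 8.64e-05). Rpl13a, whose protein is also known for silencing inflammatory mRNAs when it is released from the ribosome, was at 6835, 7105 and 6909 TPM in GC and at 9864, 9618 and 10662 TPM in naive B cells (-0.53, adjusted p = 0.000129). Rpl30 fell from 2809.8 TPM ± 142 to 1961 TPM ± 96.2 (SD, n = 3 each; -0.52, adjusted p = 0.000241). In each of these genes the GC and naive pools were separate. Rpl12, whose protein sits at the foot of the stalk, was at 109, 119 and 130.0 TPM in GC and at 223, 238 and 260.3 TPM in naive B cells (-1.004, adjusted p = 7.74e-05), but its copies held 93.6% of the summed level, and with them the change was -0.49 (adjusted p = 0.000105). Rpl10, which is placed last on the large subunit, moved in the same way from -0.47 (adjusted p = 0.00215) to -0.28 (adjusted p = 0.00254) with copies.

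Several members have been studied for their link to p53 and to inherited anemia. Rps19, which is mutated in Diamond-Blackfan anemia, was at 2709, 2777 and 2709.8 TPM in GC and at 3543, 3409.9 and 3523 TPM in naive B cells (-0.35, SE 0.0343, adjusted p = 0.000157). Rpl11 was at 922 TPM ± 48.2 in GC and at 1166 TPM ± 74.8 in naive B cells (-0.34, adjusted p = 0.00315) and was also lower with copies (-0.30, adjusted p = 0.00526), whereas the change of its 5S partner Rpl5 was not seen with copies. With copies added, the members with the highest mean level were Rps29, Rpl13a, Rps27, Rps28, Rpl28 and Rplp1. Of these, Rpl28 was higher in GC B cells and the others were lower. Of the 6 members whose own rows, without copies, had the highest mean level, Rpl13a, Rps24, Rplp1, Rps15 (-0.38, adjusted p = 0.00594) and Rps19 were lower. Rpl23a was at 3158 TPM ± 12.4 in GC and at 3149 TPM ± 172 in naive B cells, a log2 fold change of 0.01 (adjusted p = 0.933) whose sign changed with the scaling and which was 0.15 after quantile normalization, past the threshold (adjusted p = 0.00362).

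**Figure D3:**
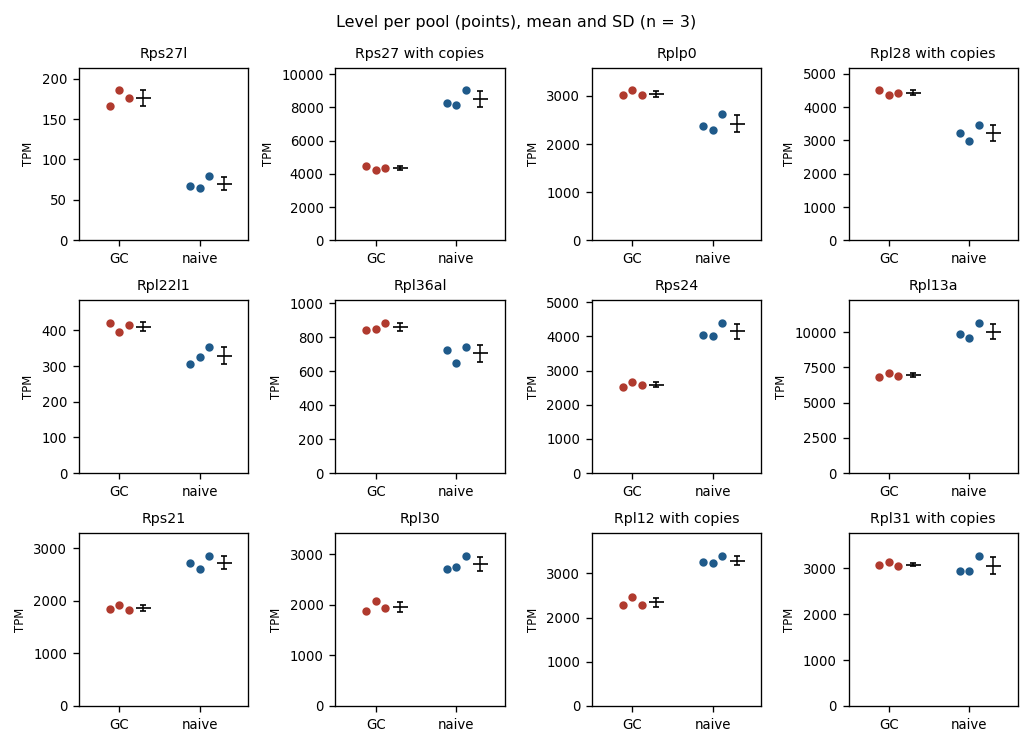
Each panel gives the TPM of one gene in the 3 GC and 3 naive pools (points) with the mean and SD beside them, on axes that start at 0. GC pools lie above naive pools for Rps27l, Rplp0, Rpl28 with copies, Rpl22l1 and Rpl36al, below them for Rps27 with copies, Rps24, Rpl13a, Rps21, Rpl30 and Rpl12 with copies, and among them for Rpl31 with copies.

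To separate a gene's own change from the shift that most members shared, the fit was repeated after the median level of the core genes had been subtracted from every gene in each pool. Centring on the members' own median makes them split about evenly by construction, so that the counts, 20 higher and 19 lower in GC B cells (36.5% and 19.6% of all genes tested), are given as a description, and only the order of the members is of use. The counts were 12 and 7 without limma's trend. With copies added both counts rose, with 31 members higher. The highest were Rps27l (1.47, adjusted p = 2.69e-06), Rpl31 and Rpl27, the latter 2 resting on copies, and Rplp0 followed at 0.49 (adjusted p = 0.000141). The lowest were Rpl12 (-0.85), Rps24 (-0.52) and Rpl10a (-0.45), which with copies added were at -0.30, -0.49 and 0.10. In that fit the lowest was Rps27 (-0.77), and Rpl28 (0.65) was the highest after Rps27l. Across the 6 pools, the genes whose levels were most like the median of the core members included Hist2h2aa2 (Pearson's r = 0.969), Dph3 (0.969), Rps28 (0.965) and Mpnd (0.965). These are descriptions over 6 pools that share the contrast between GC and naive B cells.

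Other genes of the ribosome and its production were compared by lists. Of subunit genes with other names, Fau and Gnb2l1 were lower in GC B cells. Fau, which encodes the small subunit protein S30 fused to a ubiquitin-like protein, had a log2 fold change of -0.39 (adjusted p = 0.00153), and Gnb2l1, the scaffold protein RACK1, one of -0.25 (adjusted p = 0.00228). The 76 mitochondrial ribosomal protein genes counted 55 higher and 3 lower, with a median of 0.46. Those with the largest change were Mrpl18 (1.31), Mrpl27 (1.17) and Mrpl40 (1.06). Of 54 nucleolar genes of ribosome biogenesis, 30 were higher and 9 lower, with a median of 0.24. Nop16 (0.89) and Nhp2 (0.87), a protein of H/ACA snoRNPs that guide pseudouridylation of rRNA, were higher, and Nle1, which acts in large subunit maturation, was lower (-0.97). After removal of GC content and length trends these counts were 20 higher and 17 lower with a median of 0.07, and after quantile normalization the median was 0.12. Genes of translation and RNA binding that also have TOP mRNAs counted 8 higher and 3 lower of 14, with a median of 0.25 that was 0.10 after removal of GC content and length trends (7 higher and 4 lower). They were led by Pabpc1 (0.61), which binds poly(A) tails, Hnrnpa1 (0.58), which encodes a splicing and RNA-binding protein, and Eif3h (0.57), a translation initiation factor subunit. Of all genes tested, 35.5% were higher and 30.1% lower in the fit behind these counts. These 3 medians differ in sign from that of the members, and the difference between lists was not tested.

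**Figure D4:**
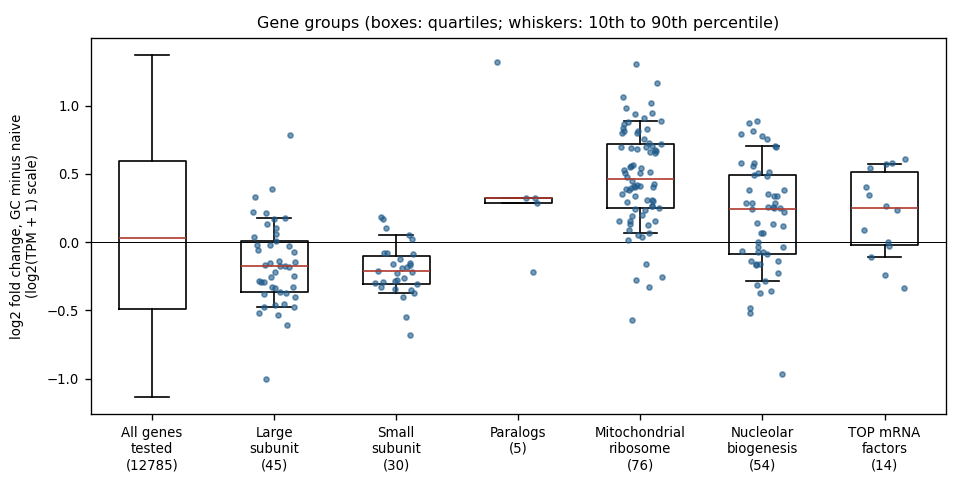
Boxes give the quartiles, and whiskers the 10th to 90th percentile, of log2 fold changes (GC minus naive, log2(TPM + 1) scale) for all genes tested and for the gene groups named on the axis, with 1 point per gene except for all genes. The medians are -0.18 and -0.21 for large and small subunit genes and 0.46, 0.24 and 0.25 for mitochondrial ribosomal protein, biogenesis and TOP factor genes.

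The start sites of these genes were examined in the RefSeq promoters (GRCm38.p6, the build of the authors' transcriptome), which span 250 bases before to 50 bases after each start and were given for 64 of the 85 members. A few 30-base windows around the start, which lies at the middle, are shown 5′ to 3′ on the gene's strand for genes that were higher (Rps27l, Rpl22l1, Rplp0 and Rpl36al) and genes that were lower in GC B cells (Rpl13a, Rps24, Rpl38, Rps21 and Rpl12). Capitals mark the longest run of pyrimidines in each, and 1 of the 2 annotated starts is shown for Rps27l, Rps24 and Rps21.
Rps27l (chr9:66946071-66946100, plus strand): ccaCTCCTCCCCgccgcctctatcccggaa
Rpl22l1 (chr3:28805493-28805522, plus strand): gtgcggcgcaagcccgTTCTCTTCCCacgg
Rplp0 (chr5:115559452-115559481, plus strand): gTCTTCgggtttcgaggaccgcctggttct
Rpl36al (chr12:69184053-69184082, minus strand): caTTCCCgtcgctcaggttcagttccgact
Rpl13a (chr7:45128731-45128760, minus strand): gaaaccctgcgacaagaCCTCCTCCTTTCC
Rps24 (chr14:24490663-24490692, plus strand): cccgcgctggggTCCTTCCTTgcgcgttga
Rpl38 (chr11:114668565-114668594, plus strand): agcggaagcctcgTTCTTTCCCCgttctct
Rps21 (chr2:180257364-180257393, plus strand): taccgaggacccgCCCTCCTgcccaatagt
Rpl12 (chr2:32961697-32961726, plus strand): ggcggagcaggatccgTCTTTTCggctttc
The run was 10, 9, 5 and 5 bases long in Rpl22l1, Rps27l, Rplp0 and Rpl36al, which were higher, and 13, 10, 9, 7 and 7 in Rpl13a, Rpl38, Rps24, Rps21 and Rpl12, which were lower, so that the lengths overlapped. Their positions differed. The marked runs of Rps27l, Rplp0 and Rpl36al ended before the start shown, outside the mRNA that begins there. Only the longest run was marked, and in Rps27l an unmarked run of 5 bases follows the start. The marked runs of Rpl22l1 and of the genes that were lower spanned or followed the start. Whether position goes with the direction of change was not tested. Over the 56 core genes with a promoter, 47 (83.9%) had a run of at least 8 pyrimidines within 50 bases on either side of the start, as had 39.3% of the 27025 genes in the table. Such a run was found in 8 of 11 members that were higher and in 28 of 31 that were lower in GC B cells. The ETS motif CCGGAAG, on either strand, was found in 41.1% of core promoters and 9.93% of all, the SP1 motif GGGCGG in 60.7% and 38.2%, and the YY1 motif AAGATGGC in 8.93% and 3.19%. The E-box CACGTG was found in 10.7% and 8.09%, the NRF1 motif GCATGCGC in 5.36% and 3.05%, and TATAAA in 8.93% and 9.77%. Matches of different motifs may overlap, and a match describes the sequence only.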

How the data were processed

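RNA-Seq was performed on total RNA of 3 GC and 3 naive B cell pools with the NEB NEXT Ultra kit on a HiSeq instrument. The authors demultiplexed reads with CASAVA 1.8, removed adapters with cutadapt 1.9, aligned and quantified with RSEM 1.2.25 on the mouse transcriptome (NCBIm38, Ensembl annotation), with a mean fragment length of 180 (SD 50), and deposited FPKM per gene with 2 decimals. edgeR is named among their tools without a role. The deposited FPKM hold no counts, and low values gave only 68.7% to 74.6% near whole reads (within 0.15), so no count test was used, and depths are approximate.

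FPKM were divided by the pool total, between 717537 and 774597, and multiplied to sum to 1000000 (TPM). The paper's methods name no test for this contrast. limma 3.58.1 (R 4.3.3; lmFit, eBayes with trend, two-sided) was fitted to log2(TPM + 1), with a pseudocount of 1, over genes with at least 1 TPM in 3 pools, without a replicate block, and was tested on simulated data. Fold changes on this scale understate changes of low genes. Symbols came from GENCODE vM1 (NCBIM37), which named 33398 of 39179 identifiers; Rpl41 found no row. Identifiers without a symbol could hold further copies. Copies were found with BLAST 2.17.0 of coding sequences. Other steps used Python 3.11.15, numpy 2.4.6, pandas 2.3.3, Biopython 1.88 and matplotlib 3.10.9.

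Members and lists were chosen with earlier results of these data known. Named genes were the 8 members with the largest and the 8 with the smallest log2 fold change, the 6 with the highest level, all paralogs, the 3 most and 3 least changed against the core median, those under 1 TPM in all pools, the 3 most changed of each comparison list, the 5 most like the core median, the stalk genes, and Rpl5, Rpl11 and Rps19. The members whose call changed with copies, and Rpl22, Rpl29, Rpl4, Rps26, Rpl24, Rpl36a and Rpl38, were named after their values had been seen, as was the search for pyrimidine runs. Alternatives covered scaling, pseudocount, filters, limma's trend, a replicate block and the removal of single pools; the sum of copies, the GC content and length correction and the small subunit sum without Rps27 and Rps29 were added after seeing the data. A few named genes and markers are not reported here. The labels do not say that pools with the same number share mice.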

Additional observations from a re-analysis of the deposited data

How the results depend on the processing

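Of 390 alternative log2 fold changes of 23 named members, 360 kept their direction and their side of the threshold. Of 129 alternative values of 8 counts, medians and ratios, 112 stayed within 1.5 times the reported count or within the spread between pools. The count of members higher in GC B cells, 13 as reported, was 8 with FPKM as deposited, 8 with median-of-ratios factors from other genes and 8 after a correction for GC content and length, an alternative added after the data had been seen. Of all genes tested in these fits, 4189 of 12308, 4372 of 12777 and 3723 of 11031 were higher, in the same order. The median log2 fold change was -0.069 after quantile normalization and -0.29 after the GC content and length correction, and all genes tested shifted to -0.06 and -0.08, so that the members lay 0.01 and 0.21 below all genes, against 0.21 as reported. The ratio of summed TPM was 0.948 after quantile normalization. Of the called members, 23.6% were higher as reported, 36.2% after quantile normalization (17 against 30) and 12.3% after the GC content and length correction (8 against 57), while among all called genes these shares were 54.1%, 47.8% and 46.3%. Relative to the core median, 20 members were high and 19 low, which became 12 and 7 without limma's trend. With copies summed 31 were high and the count of low members rose as well, and 11 were low with no filter on low values. Leaving out 1 pool at a time gave 9 to 13 higher and 34 to 46 lower members, 11 to 21 high and 10 to 23 low against the core median, a median of -0.22 to -0.14 and a ratio of 0.839 to 0.890. All genes tested, 12072 to 12311 in these fits, then counted 3581 to 4347 higher and 3046 to 3566 lower. Rpl23a changed sign with FPKM as deposited (-0.047), with median-of-ratios factors (-0.031), without immunoglobulin genes in the total (-0.0012) and after the GC content and length correction (-0.12), and lay between -0.032 and 0.046 when 1 pool was left out, while it was 0.15 and past the threshold after quantile normalization. Rplp2 was 0.014 after quantile normalization, and Rpl27 was -0.033 with copies summed. The cause of these changes was not tested. Same-numbered pools had correlations of 0.083, 0.0225 and 0.0456, which do not settle whether the replicate numbers pair the pools. With the replicate number as a block 10 members were higher and 35 lower, while the fits' medians did not change. Of all 12785 genes tested, 4342 were higher and 3618 lower with that block. In 5 of 6 pools the best correlation was with the same number, and naive replicate 2 was the exception. The files hold no counts, so that the precision of single values rests on the spread between 3 pools.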
